A study of Mus musculus with 4 samples.

Results

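The genes described here are 10 feedback inhibitors and transcription factors that fibroblast growth factor (FGF) signals switch on through the kinase ERK. They are the Sprouty genes Spry1, Spry2 and Spry4, the related Spred1 and Spred2, the phosphatase genes Dusp4 and Dusp6, the ETS transcription factor genes Etv4 and Etv5, and Il17rd. They were taken by symbol from a table of 51098 genes, and each of the 10 symbols had 1 row.

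An FGF bound to its receptor on the cell surface activates RAS, which starts a chain of kinases that ends with ERK. Active ERK raises the transcription of genes whose products then dampen the same chain, so the RNA of these genes is widely read as a trace of FGF signalling. In the developing gut and lung, FGFs pass between epithelium, mesothelium and mesenchyme, and Sprouty and ETS genes are among the best known responders.

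The study measured RNA in stomachs of E15.5 mouse embryos, a stage late in gestation. The labels give 2 groups of 2 samples, numbered 2 and 3 in each. Fgf9_null carried the LacZ allele of Fgf9 on both chromosomes (Fgf9LacZ/LacZ), and Fgf9_het carried that allele beside a normal copy (Fgf9LacZ/+), so no group was free of the allele. The titles call the second group WT, although its genotype label is heterozygous. Neither the strain nor whether a sample was 1 embryo or a pool is labelled.

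The columns labelled by genotype did not hold 4 separate libraries. Same-numbered columns of the 2 labels had equal counts, within 0.001 reads, for 60.8% and 59.1% of genes, against 1.4% between columns of different numbers. The chi-square per degree of freedom over all genes was 4.46 for number 2 and 4.64 for number 3, against 5.50 to 10.6 between different numbers. Without Rn7s6, Rn7s1, Gm19220 and Gm26461, the 4 genes with an unadjusted p under 0.05 between the labels, it was 0.000792 and 0.00385, against 5.49 to 5.50 between different numbers and a value near 1 for separate draws of reads. The columns of a pair did differ in these genes, with Rn7s6 at a log2 fold of Fgf9_null over Fgf9_het of 5.47 (SE 0.188, edgeR adjusted p = 0.643) and Rn7s1 at 1.03 (SE 0.0381, edgeR adjusted p = 0.643). Each such pair, which apart from these genes is closer than sampling noise allows for separate samples, was counted as 1 sample, giving what is called library 3 and library 2 here. The genotype of either library is not resolved by these columns, so nothing that follows measures an effect of Fgf9. Fgf9 itself had 131 and 133 reads in Fgf9_null replicates 3 and 2, against 131 and 133 in Fgf9_het; counts per gene do not show which exons the reads came from, so they do not check the labels. Column totals were 19269851 to 22713416 estimated counts, at which 3 counts, the detection floor used, were worth 0.132 to 0.156 CPM (the count divided by the column total, on a fixed scale). Markers of the stomach were present, with the mesenchymal transcription factor gene Barx1 at 133 ± 4.73 CPM and the chymosin gene Cym at 4692 ± 269 CPM (SD, n = 2 libraries), while 4 lung genes summed to 0.0927 CPM in library 3 and 0.457 CPM in library 2.

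All 10 genes were well above the floor, with 202 to 1819 reads in a column. The Sprouty genes encode cytoplasmic inhibitors that act on the chain between the receptor and RAF. Spry2 (ENSMUSG00000022114, GRCm38 chromosome 14, 105891947 to 105896819, minus strand) had 894 and 697 reads in Fgf9_null replicates 3 and 2, against 895 and 697 in Fgf9_het. Spry1 (ENSMUSG00000037211, chromosome 3, 37639947 to 37644598) had 760 and 646 reads in Fgf9_null, against 760 and 647 in Fgf9_het. Spry4 (ENSMUSG00000024427, chromosome 18, 38586247 to 38601415, minus strand) had 603 and 524 reads under either label. Every Sprouty gene thus had the same reads under both labels to within 1 read, and differed only between the numbers. As levels, Spry2 stood at 39.6 CPM in library 3, above its 35.9 CPM in library 2. Spry1 and Spry4 were level, at 33.7 and 26.7 CPM in library 3 against 33.3 and 27.01 CPM in library 2. In bulk RNA, fewer cells of a type and less RNA per cell cannot be told apart.

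The Spred genes encode membrane-bound relatives of Sprouty that hold the RAS inhibitor neurofibromin at the membrane. Spred1 (ENSMUSG00000027351, chromosome 2, 117121374 to 117182279) had 1818 and 1631 reads in Fgf9_null replicates 3 and 2, against 1819 and 1634 in Fgf9_het, the highest counts of the 10 genes. Spred2 (ENSMUSG00000045671, chromosome 11, 19924375 to 20024026) had 1175 and 1065 reads under either label. Both were slightly lower in library 3, with Spred1 at 80.6 against 84.1 CPM and Spred2 at 52.1 against 54.9 CPM in library 2.

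Dusp6 and Dusp4 encode phosphatases that take the activating phosphates off ERK, the first in the cytoplasm and the other in the nucleus. Dusp6 (ENSMUSG00000019960, chromosome 10, 99263231 to 99267489) had 766 and 576 reads in replicates 3 and 2 of either label. Dusp4 (ENSMUSG00000031530, chromosome 8, 34807297 to 34819894) had 295 and 215 reads in Fgf9_null, against 296 and 215 in Fgf9_het. Both phosphatase genes were higher in library 3. Dusp6 stood at 33.9 CPM there, against 29.7 CPM in library 2, and Dusp4 at 13.1 against 11.1 CPM.

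Etv5 and Etv4 encode ETS transcription factors of the PEA3 group, which carry the ERK signal on to further genes. Etv5 (ENSMUSG00000013089, chromosome 16, 22381309 to 22439719, minus strand) had 892 and 762 reads in replicates 3 and 2 of either label. Etv4 (ENSMUSG00000017724, chromosome 11, 101769742 to 101785371, minus strand) had 227 and 202 reads, the lowest counts of the 10 genes. The libraries were close for both, with Etv5 at 39.5 CPM in library 3 against 39.3 CPM in library 2, and Etv4 at 10.1 against 10.4 CPM. Il17rd encodes Sef, a membrane protein of the interleukin receptor type that dampens FGF signalling. It (ENSMUSG00000040717, chromosome 14, 27038941 to 27107286) had 950 and 948 reads in Fgf9_null replicates 3 and 2, against 950 reads in both Fgf9_het columns. With equal reads at unequal depth, its level was 42.1 CPM in library 3, below the 48.9 CPM of library 2.

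**Figure D1:**
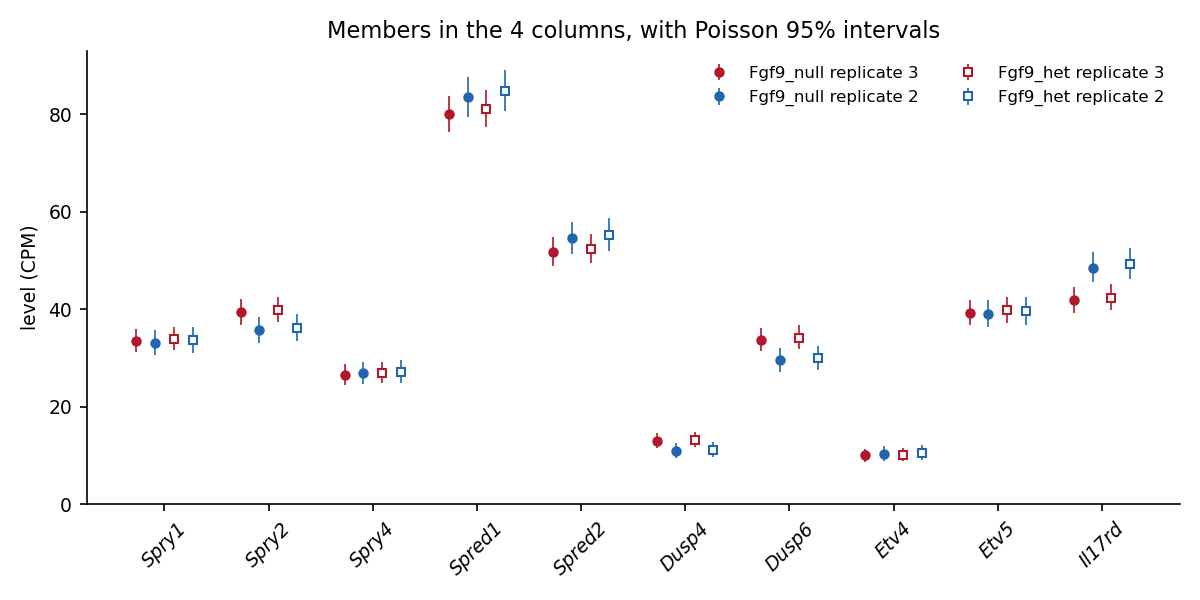
Level of each of the 10 genes (y axis, CPM) in the 4 columns, Fgf9_null left of Fgf9_het within each gene; bars are exact Poisson 95% intervals. For every gene the filled and the open symbol of 1 colour, the same number under the 2 labels, lie together; Dusp6, for instance, is at 33.7 and 29.5 CPM in Fgf9_null replicates 3 and 2 and at 34.2 and 29.9 CPM in Fgf9_het.

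The labels were compared over all genes as the series states the contrast. None of the 10 genes passed the test. With edgeR's quasi-likelihood method and a Benjamini-Hochberg adjusted p under 0.05 as the limit, 0 of the 10 genes were called, beside 0% of all 19987 genes fitted. An unadjusted p under 0.05 was reached by 4 genes and by 0 of the 10, for which the smallest was 0.969. DESeq2 called 3 genes and 0 of the 10. The largest difference among the 10 was that of Dusp4, with a log2 fold of Fgf9_null over Fgf9_het of -0.0024 (SE 0.148, edgeR adjusted p = 1), and the log2 fold of Dusp6 was 0.00030 (SE 0.121, edgeR adjusted p = 1). For 5 of the 10 genes the counts were equal within 0.001 reads in both pairs of columns, for 8 they lay within 1 read, and the largest gap was 3 reads, in Spred1. Because each library stands under both labels, these values follow from the repeated columns and do not show that the genes are independent of Fgf9.

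Levels were compared between the genes per kilobase of exon (CPM divided by the length of all annotated exons, GENCODE M21), since a longer RNA gives more reads. Spry2 was highest at 18.1 ± 1.26 CPM per kb (SD, n = 2 libraries, as for all values in this paragraph). Below it came Spred1 at 12.1 ± 0.371, Spred2 at 11.6 ± 0.433 and Spry1 at 11.5 ± 0.0863 CPM per kb. Spred2 and Spry1 overlapped between libraries and so held no firm order. Spred1 and Spred2 also overlapped, though Spred1 was the higher within each library. Dusp6 followed at 10.2 ± 0.960 and Etv5 at 9.60 ± 0.0432 CPM per kb, again overlapping. By this length Spry4 stood apart from its neighbours at 5.65 ± 0.0429 CPM per kb. The lowest were Dusp4 at 4.41 ± 0.519, Il17rd at 4.14 ± 0.438 and Etv4 at 3.30 ± 0.0804 CPM per kb, of which Dusp4 and Il17rd overlapped. The highest gene was 5.49 times the lowest.

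**Figure D2:**
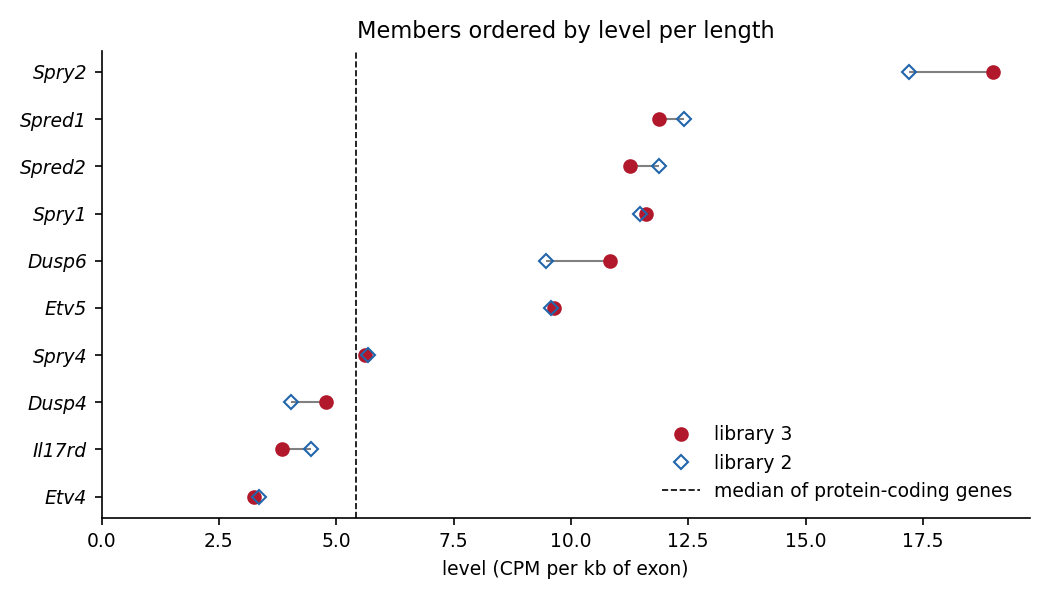
Level per exon length of each gene (x axis, CPM per kb) in library 3 (filled circles) and library 2 (open diamonds), from highest to lowest. Spry2 lies to the right of all others at 18.99 and 17.2 CPM per kb, and Dusp4, Il17rd and Etv4 lie left of the line at the median of 5.41 CPM per kb over protein-coding genes.

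Against the 14332 protein-coding genes with at least 1 CPM in both libraries, whose median was 5.41 CPM per kb, 7 of the 10 genes lay above the median. Spry2 exceeded 86.8% of these genes, Spred1 77.1%, Spred2 75.6% and Spry1 75.5%. Dusp6 and Etv5 exceeded 71.9% and 70.2%, Spry4 51.5%, and Dusp4, Il17rd and Etv4 43.2%, 41.0% and 34.3%. The Sprouty genes together made up 39.5% of the summed level per kb of the 10 genes in library 3 and 38.4% in library 2. The Spred pair made up 25.3% and 27.1%, the phosphatases 17.0% and 15.1%, the ETS pair 14.04% and 14.4%, and Il17rd 4.18% and 4.97%.

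Within each family the same gene led in both libraries. Spry2 was 1.64 times Spry1 per kb in library 3 and 1.5 times in library 2, and 3.38 and 3.03 times Spry4. Dusp6 was 2.27 and 2.34 times Dusp4. Etv5 was 2.97 and 2.85 times Etv4. Spred1 and Spred2 were nearly equal, at ratios of 1.05 and 1.04. These ratios depend on the length taken. With the longest transcript in place of all exons Spry1 passed Spred2 and Il17rd passed Dusp4, both pairs that overlapped. That length also brought Il17rd, at 5.497 CPM per kb, close to Spry4 at 5.649, and Etv4, at 4.273, close to Dusp4 at 4.411. The places of Spry4 and Etv4 apart from these genes thus rest on the exon length, and overlap was not examined with the other.

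The spread these columns hold is that between library 3 and library 2. The sum over the 10 genes was 371 CPM in library 3, against 375 CPM in library 2. Individually 5 were higher and 5 lower in library 3, a median of 0.998-fold, beside 45.8% higher, 54.2% lower and a median of 0.989-fold over the 16712 genes with at least 1 CPM in both libraries. None of the 10 passed a ratio of 5 to 4 in either direction. That ratio was passed upward by 5.18% and downward by 9.46% of all genes. With a minimum of 5 CPM in both libraries, which all 10 genes met, 6.94% of 12731 genes passed it in either direction. Having 0 of 10 genes past it is near that share. The median size of difference in either direction was 1.05-fold for the 10 genes, against 1.08-fold for all genes and 1.06-fold for the 8981 genes between 10 and 100 CPM. There is 1 library on each side, so these folds have no test, and the intervals given cover counting error only.

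The largest folds belonged to the phosphatases and to Il17rd. Dusp4 was 1.18-fold higher in library 3 (exact 95% counting interval 0.990 to 1.42), Dusp6 was 1.14-fold higher (1.03 to 1.28) and Spry2 1.104-fold higher (0.998 to 1.22). Il17rd was at 0.861-fold (0.786 to 0.943). The intervals of Dusp6 and Il17rd left out 1, and those of the other 8 genes held it. How many of all genes had an interval that left out 1 was not counted, so nothing is read from this split. It also depends on the scaling, since the lower ends for Spry2 and Dusp4 lay close to 1. TMM library sizes moved these 2 genes to 1.119-fold and 1.198-fold, and the intervals were not computed again. Past 1.1-fold in either direction were 4 of the 10 genes, beside 41.3% of all genes with at least 1 CPM in both libraries. They were 3 higher genes, beside 17.3% of all genes, and Il17rd as the 1 lower gene, beside 23.9%. The share past 1.1-fold among genes at the level of the 10 was not computed, so this count is not read as a result about them. Spred1 and Spred2 were at 0.958-fold and 0.949-fold, Etv4 at 0.966-fold, and Spry1, Etv5 and Spry4 at 1.01, 1.01 and 0.989-fold. The side of Spry4 turned with the scaling, to 1.003-fold with TMM library sizes.

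**Figure D3:**
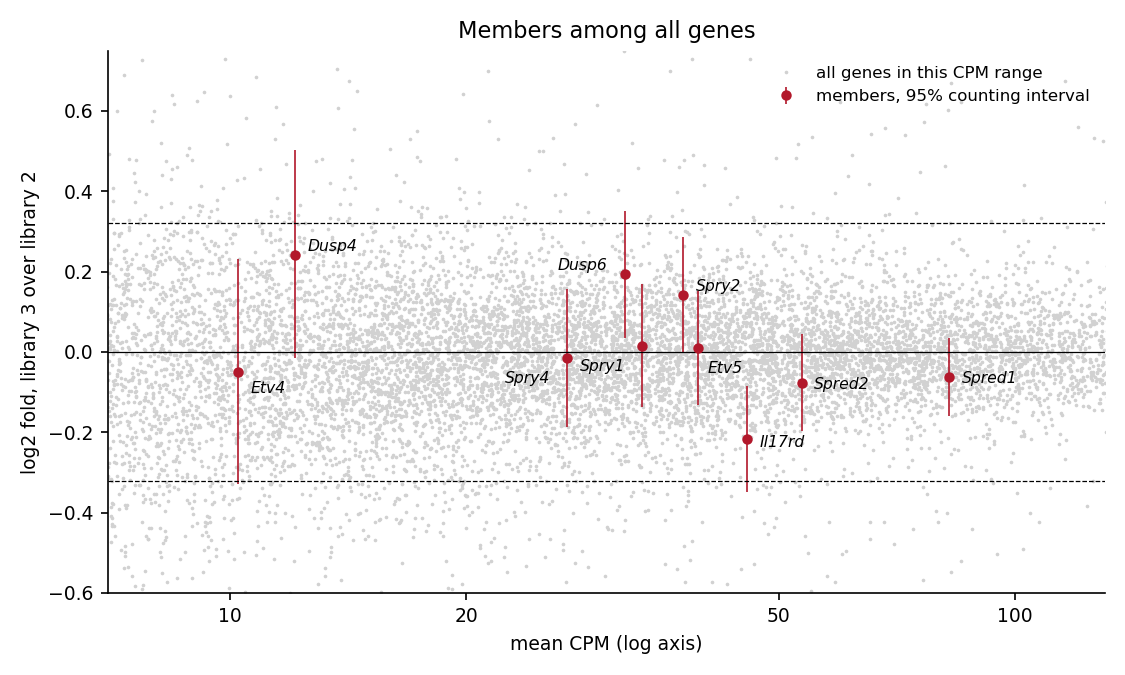
Log2 fold of library 3 over library 2 (y axis) against mean level (x axis, CPM, log axis) for the 10 genes in red, with 95% counting intervals, and for all genes in the same range of level in grey; dashed lines mark a ratio of 5 to 4, and 114 genes in this range lie beyond the y axis. All 10 genes lie between the dashed lines, Dusp4 highest at 0.24 and Il17rd lowest at -0.22.

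Promoter sequence was set beside these folds to show the starts of Dusp6, Spry2 and Il17rd, which lay over 1.1-fold apart between libraries, and of Spred2, which did not. RefSeq (GRCm38.p6) windows from 250 bases before to 50 after the start were used for 7 of the 10 genes, with Etv5 in 2 windows. No window was available for Dusp4 and Etv4, and Spry4 was not searched. They were searched on both strands for the ETS core in the forms AGGAAG and CGGAAG, which differ in the first letter and so never match at the same position. Capitals mark each match, read as CTTCCT or CTTCCG where it lies on the other strand.
Dusp6, chr10:99262981-99263280, plus strand: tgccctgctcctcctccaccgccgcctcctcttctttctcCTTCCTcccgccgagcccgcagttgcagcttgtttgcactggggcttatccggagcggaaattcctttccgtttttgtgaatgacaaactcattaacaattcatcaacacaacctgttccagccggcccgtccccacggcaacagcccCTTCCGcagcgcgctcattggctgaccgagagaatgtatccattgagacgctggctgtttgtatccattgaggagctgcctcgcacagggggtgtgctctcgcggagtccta
Spry2, chr14:105896770-105897069, minus strand: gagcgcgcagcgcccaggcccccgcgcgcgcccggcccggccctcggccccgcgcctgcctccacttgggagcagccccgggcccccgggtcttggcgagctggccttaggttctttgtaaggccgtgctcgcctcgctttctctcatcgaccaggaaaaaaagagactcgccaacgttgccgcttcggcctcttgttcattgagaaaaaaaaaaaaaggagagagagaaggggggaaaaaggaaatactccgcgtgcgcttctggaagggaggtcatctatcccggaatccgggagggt
Il17rd, chr14:27038751-27039050, plus strand: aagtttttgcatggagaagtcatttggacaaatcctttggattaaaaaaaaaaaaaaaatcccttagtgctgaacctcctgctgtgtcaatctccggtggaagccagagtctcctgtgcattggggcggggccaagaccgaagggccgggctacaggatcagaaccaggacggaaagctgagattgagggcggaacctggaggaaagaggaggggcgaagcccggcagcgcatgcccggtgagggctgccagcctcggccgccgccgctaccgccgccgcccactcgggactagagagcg
Spred2, chr11:19924192-19924491, plus strand: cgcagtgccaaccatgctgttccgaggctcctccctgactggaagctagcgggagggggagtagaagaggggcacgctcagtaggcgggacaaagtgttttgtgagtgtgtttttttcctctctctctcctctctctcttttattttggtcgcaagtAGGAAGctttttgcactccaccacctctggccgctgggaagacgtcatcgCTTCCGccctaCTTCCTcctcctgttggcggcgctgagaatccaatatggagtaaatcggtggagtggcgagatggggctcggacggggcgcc
Dusp6 had 2 matches and Spred2 had 3, while Spry2 and Il17rd had 0 in these windows. Of the others, Spred1 had 2 matches, Spry1 had 0 and Etv5 had 0 in its upstream and 1 in its downstream window. Matches were thus held by 4 of the 8 windows, beside 46.3% of 32544 different windows of all genes, a share near the background. The AP-1 motif TGACTCA and the CArG box, the site of serum response factor, had 0 matches in the 8 windows and were held by 5.19% and 1.64% of all windows. The windows of the 7 genes were 57.0% to 74.0% G and C, against a median of 53.0% over all windows. A match is a description of letters and does not show binding.

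Genes of the same families outside the 10 were also expressed. All 5 that were analysed (Spred3, Etv1, Dusp5, Dusp7 and Dusp9) had at least 1 CPM in both libraries. Etv1, the third ETS gene of the PEA3 group, had 65.5 CPM in library 3, against 61.1 CPM in library 2, which per kb, at 4.76 ± 0.233 CPM, placed it between Etv5 and Etv4. Dusp7, another ERK phosphatase gene, stood at 11.5 ± 0.0684 CPM per kb, close to Dusp6, while Dusp5 had 2.17 ± 0.210 CPM per kb. All 5 were higher in library 3, by 1.01 to 1.15-fold, beside 45.8% of all genes, and 0 passed a ratio of 5 to 4, beside 5.18% of all genes upward. Spry3, the sixth listed gene, was not analysed here.

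The chain that leads to ERK lay near all genes in its folds between the libraries. Of its 22 genes, from the adaptor Frs2 to the kinase gene Mapk3, 13 were higher and 9 lower in library 3. Over all genes 45.8% were higher and 54.2% lower, and the median of the 22 was 1.00-fold, against 0.989-fold over all genes. Past a ratio of 5 to 4 were 0 genes of the chain, beside 6.94% of genes with at least 5 CPM in both libraries. Having 0 of 22 genes past it is near that share. Its most abundant genes by CPM were Cic, which encodes a repressor of ETS genes that ERK switches off, at 339 ± 4.54 CPM, and Nf1, the neurofibromin gene, at 192 ± 1.71 CPM. The farthest apart were Sos2, a RAS activator gene, at 0.875-fold, and Cbl, a ubiquitin ligase gene, at 0.919-fold. Per kb, Mapk3 stood at 44.3 ± 0.572 CPM, above each of the 10 feedback and ETS genes. It was picked out with its value in view.

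Of 13 receptor and ligand genes 11 had at least 1 CPM in both libraries, 3 higher and 8 lower in library 3, beside 45.8% higher and 54.2% lower over all genes, with a median of 0.926-fold. Past a ratio of 5 to 4 were 1 gene upward and 2 downward, beside 5.18% and 9.46% of all genes. Fgfr2, a receptor gene, had 199.9 CPM in library 3, against 219.6 CPM in library 2, and Fgfr1 had 149 against 154 CPM. The ligand gene Fgf10 had 23.4 and 18.1 CPM, a 1.29-fold difference, and Fgf1 had 5.05 and 7.16 CPM, at 0.705-fold. Fgf9 had 5.81 and 6.86 CPM, and its counting interval for the fold, 0.660 to 1.09, held 1.

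Some other ERK response genes lay apart between the libraries, Egr1 and Fos most. Of 12 genes, 11 had at least 1 CPM in both libraries, with a median of 1.085-fold. In library 3, 9 were higher and 2 lower, beside 45.8% higher and 54.2% lower over all genes. A ratio of 5 to 4 was passed upward by 4, beside 5.18% of all genes. Egr1, an immediate early transcription factor gene, had 125 CPM in library 3, against 62.5 CPM in library 2, a 2.01-fold difference. Fos, another immediate early gene, had 87.1 and 50.3 CPM, at 1.73-fold. Junb and Dusp1, which are induced by stress as well, were at 1.32-fold and 1.26-fold and were named after their values were seen. The cyclin gene Ccnd1, a slower target, was at 1.09-fold with 126 and 116 CPM. Flrt3, Epha2 and Epha4 lay at 1.00, 0.982 and 1.03-fold, and Phlda1, Myc and Ier3 at 1.17, 1.05 and 0.912-fold, all named likewise.

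**Figure D4:**
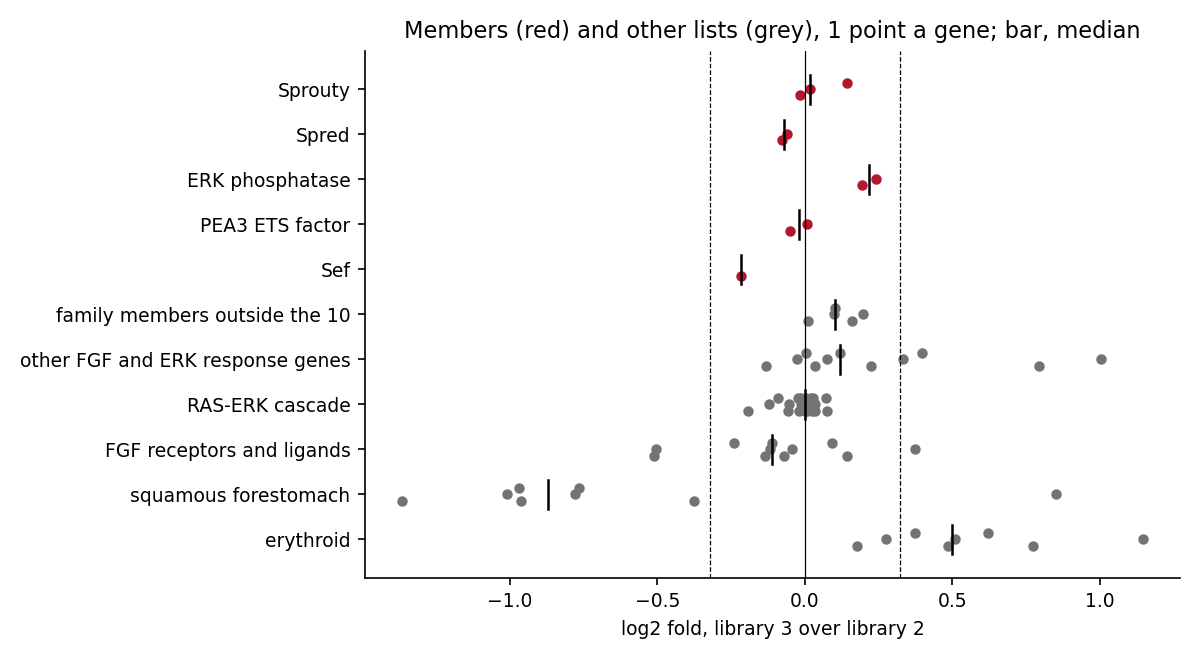
Log2 fold of library 3 over library 2 (x axis), 1 point for each gene with at least 1 CPM in both libraries, by list; bars are medians and dashed lines a ratio of 5 to 4. The 10 genes (red) and the 22 genes of the RAS and ERK chain stay within the dashed lines, while Egr1 reaches 2.01-fold and the squamous and erythroid markers spread beyond them.

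Cell type markers differed between the libraries beside these folds. Of all genes with at least 1 CPM in both libraries, 45.8% were higher and 54.2% lower in library 3. A ratio of 5 to 4 was passed upward by 5.18% and downward by 9.46% of them. The 10 squamous forestomach markers summed to 382 CPM in library 3 and 673 CPM in library 2. The 8 at 1 CPM or more had a median of 0.547-fold, with 7 of them lower in library 3. The other, Sprr1a, went the opposite way at 1.805-fold, with 28.85 and 15.98 CPM, and was named after its value was seen. The 10 erythroid markers summed to 1595 and 1156 CPM, with all 8 at 1 CPM or more higher in library 3, a median of 1.41-fold, and Hbb-bh1 at 2 reads in library 3 and 0 in library 2. The 5 endothelial markers were all higher in library 3, at a median of 1.12-fold and with sums of 299 and 258 CPM. The 4 mesenchymal markers were all higher there too, at a median of 1.26-fold and with sums of 321 and 282 CPM, whereas the 6 smooth muscle markers (6029 and 5822 CPM) and the 8 glandular markers (6211 and 6567 CPM) had medians of 0.996-fold and 1.01-fold. The 7 liver markers summed to 58.4 and 35.2 CPM, with all 4 at 1 CPM or more higher in library 3, 3 of them past a ratio of 5 to 4, at a median of 1.84-fold, the largest upward median among these lists. The 5 pancreas markers summed to 6.25 and 6.24 CPM, with Ptf1a, Prss1 and Ins2 at 0. The part of these cell types in the folds of Dusp4, Dusp6, Spry2 and Il17rd was not tested.

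The reads of some members could be shared with other annotated genes. Etv5 had 30.3% of its sequence words of 31 bases in common with Gm4798, a processed pseudogene on chromosome 10 that was listed at 0 in all columns. Spry1 had 23.1% in common with Gm42922, which overlaps 710 of its exon bases on the opposite strand, is annotated as TEC, a type of locus that awaits experimental proof, and was not analysed here. Spred2 shared 4.20% with the pseudogene Gm14612, Il17rd 1.37% with 40 genes, and Spry2 and Spred1 under 1%. Dusp4, Dusp6, Etv4 and Spry4 shared none. No source used here gives the strand setting of the counting, so reads of Spry1 and of its antisense partner cannot be told apart.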

How the data were processed

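Stomach RNA was depleted of ribosomal RNA, reverse transcribed from random hexamers and read from both ends, per the labels' protocols. Salmon 1.8.0, Trimmomatic 0.33, FastQC 0.10 and edgeR, and the build GRCm38, are listed without roles, per the submitters' processing notes. What index, annotation and strand setting were used is not given in the sources used here. In the deposited table each gene identifier has an estimated count per column, with no scaling by the authors. Groups follow the genotype field, replicate numbers the titles. A further 2 value columns carry no name and were not used. It is not settled that the header's names are in the right places.

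CPM was computed on column totals (19269851 to 22713416), and same-numbered columns were averaged, as their deviations from the group means correlated at 0.9995 across genes. Levels are mean ± SD over 2 libraries. Counting intervals (exact Poisson for counts, Clopper-Pearson for folds, 95%, SciPy 1.17.1) cover counting error only. The labels were compared on rounded estimated counts by edgeR 4.0.16 under R 4.3.3 (TMM, filterByExpr, quasi-likelihood, Benjamini-Hochberg, 0.05); DESeq2 1.42.0 was an alternative. Both were run on simulated data with separately drawn columns, unlike the repeated columns here, so that check does not bear on this contrast. A p-value here reflects the spread between columns only, which may be technical. The SE beside an edgeR log2 fold was worked back from the test, as the size of the fold over the square root of its F statistic. The SE from DESeq2 was larger, at 0.241 for Dusp4 and 0.168 for Dusp6. Of the table's genes 50870 were found by identifier in GENCODE M21 (GRCm38). The members, the lists and the rule for named genes (the 10 genes, Fgf9, and from each list the 2 highest by CPM and the 2 farthest apart between libraries at 5 CPM or more) were chosen with earlier results of these data known. No gene was sought by likeness of pattern, since 2 libraries allow no such measure.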

Additional observations from a re-analysis of the deposited data

How the results depend on the processing

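No setting called any of the 10 genes between the labels: edgeR with RLE factors, without a filter on low counts, with the replicate block or without 1 column, and DESeq2, all gave 0. Over all genes the count of 0 became 3 with DESeq2, 6 with the replicate block and 1 to 2 without 1 column, where the lone column is assumed to vary like the other group; the block changed no call among the 10, and the cause was not tested. The log2 folds of the 10 genes between the labels were at most 0.0025 in size in the settings that kept all columns, and ran from -0.14 to 0.14 without 1 column, which sets library 3 against library 2 in unequal numbers.

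The summed level of the 10 genes, 373 CPM, was 449.5 CPM with structured and ribosomal RNA genes left out of the library size, 370.4 CPM from the Fgf9_null columns and 376 CPM from the Fgf9_het columns. With TMM library sizes 6 of the 10 genes were higher in library 3 in place of 5. At 1.1-fold, 4 of the 10 genes differed between the libraries, in place of 0 at a ratio of 5 to 4 and again 0 at 1.5-fold. Over all genes the count past a ratio of 5 to 4 was 2446, or 14.6% of 16712 genes. It was 883 (6.94% of 12731) with a minimum of 5 CPM and 8377 (33.1% of 25293) without a minimum. Of the 16712 genes, 6896 (41.3%) passed 1.1-fold and 649 (3.88%) passed 1.5-fold. With the longest transcript, 6 genes in place of 7 lay above the protein-coding median. Depth limits Etv4 and Dusp4 most, and having 2 independent libraries limits every comparison.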
